A study of Mus musculus with 6 samples.

Results

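The Gadd45 family was examined in the tibialis anterior (TA) muscle of aged mice treated with BML-260, a small molecule used to target the phosphatase DUSP22. The 4 genes were Gadd45a, Gadd45b, Gadd45g and Gadd45gip1, taken by gene symbol from the 45777 genes of the count table, and each of the 4 was among the 16188 genes with enough counts to be tested. They were chosen by an earlier result of the same contrast, a large fall of Gadd45a with BML-260, so their values between the groups are given as a description with no p-value. The study compared 3 male C57BL/6J mice given vehicle with 3 given BML-260 at 5 mg/kg, and 1 RNA-seq library was made from each mouse. All animals were labelled 24 months old, and the ages in the study's text differ among themselves but include this one. The labels name no transgene or deletion. The study's methods describe intraperitoneal injection over about a month with a vehicle of DMSO and Tween 80, so the vehicle mice received the solvent as well. The question asked here was whether the lower level was particular to Gadd45a or shared by the related genes.

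Gadd45 proteins are small acidic proteins induced by stress. They have no enzyme activity of their own and act by binding partners: the kinase Map3k4 at the head of the p38 and JNK cascade, the cell cycle proteins Cdk1, Pcna and p21, and enzymes of DNA repair and demethylation. In skeletal muscle Gadd45a is known as a gene induced by denervation, immobilization and fasting that promotes fiber atrophy, downstream of Hdac4 and Atf4, whereas Gadd45b and Gadd45g are better known from immune cells, liver and nervous tissue. Gadd45gip1 shares the name but not the sequence family: its product, also called CRIF1, was found as a partner of Gadd45 proteins and is a subunit of the mitochondrial ribosome.

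Gadd45a (gene ID 13197) lies on the minus strand at chr6:67035096-67037407 of GRCm38.p6, the same build as the mm10 named in the submitters' processing notes. Its 4 exons give a transcript of 1223 bases with a coding length of 495 bases, stop codon included. Gadd45b (gene ID 17873) lies on the plus strand at chr10:80930091-80932204 and Gadd45g (gene ID 23882) on the plus strand at chr13:51846675-51848475, each with 4 exons and with coding lengths of 480 and 477 bases. Gadd45gip1 (gene ID 102060), at chr8:84832282-84835482 on the plus strand, has 2 exons and a coding length of 666 bases. The 3 paralogs are therefore on 3 different chromosomes.

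RefSeq promoter sequences were found for 3 of the 4 genes, and the 250 bases before the transcription start of each are printed so that the start region of Gadd45a, which was lower with BML-260, can be set beside those of its paralogs. Capitals mark the motifs that were found, searched on both strands over those 250 bases and the first 50 of the transcript. They lie at chr6:67037408-67037657 (minus strand), chr10:80929841-80930090 (plus strand) and chr13:51846425-51846674 (plus strand) of GRCm38.p6, and read 5′ to 3′ along the gene.
Gadd45a: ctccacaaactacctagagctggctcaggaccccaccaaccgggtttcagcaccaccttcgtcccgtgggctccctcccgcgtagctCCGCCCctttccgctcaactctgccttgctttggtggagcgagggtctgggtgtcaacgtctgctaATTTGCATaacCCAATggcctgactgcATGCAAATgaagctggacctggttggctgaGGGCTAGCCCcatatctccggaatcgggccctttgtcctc
Gadd45b: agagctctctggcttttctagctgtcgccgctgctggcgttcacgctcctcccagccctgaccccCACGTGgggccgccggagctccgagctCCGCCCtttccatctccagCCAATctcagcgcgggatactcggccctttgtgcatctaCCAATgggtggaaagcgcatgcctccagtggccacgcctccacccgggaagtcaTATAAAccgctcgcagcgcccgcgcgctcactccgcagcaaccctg
Gadd45g: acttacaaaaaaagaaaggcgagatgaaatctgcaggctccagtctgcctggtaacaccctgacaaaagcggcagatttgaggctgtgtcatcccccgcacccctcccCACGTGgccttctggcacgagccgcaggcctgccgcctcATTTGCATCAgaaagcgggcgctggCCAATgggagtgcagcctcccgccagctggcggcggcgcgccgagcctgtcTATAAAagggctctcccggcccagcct

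The octamer ATTTGCAT, the site of POU factors such as Oct-1, stood in the Gadd45a promoter at -97 and again, on the opposite strand, at -70, counted from the transcription start. Of 32544 mouse promoters of the same length, 1.75% held this octamer at least 1 time and 0.108% at 2 or more positions. Gadd45g also held 1 octamer, at -103, and Gadd45b held none. A CCAAT box, CCAAT, was found in each of the 3 promoters, at -86 in Gadd45a, at -139 and -100 in Gadd45b and at -78 in Gadd45g, and in 37.4% of all promoters.

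Gadd45a was the only one of the 3 with a p53 decamer, at -40 (8.36% of all promoters), and without a TATA box, TATAAA, which stood at -46 in Gadd45b and -27 in Gadd45g (13.6%). Likewise the E box CACGTG was present at -185 in Gadd45b and -142 in Gadd45g (7.17%) but not in Gadd45a. The GC box GGGCGG stood on the opposite strand at -163 in Gadd45a and -158 in Gadd45b (35.9%). The element TGATGNAAN, read by ATF4-CHOP complexes, was found at -102 on the opposite strand of Gadd45g, where it overlaps the octamer (3.90%). No FOXO site TGTTTAC (3.66%), AP-1 site TGANTCA (7.79%), CRE TGACGTCA (1.80%) or CArG box (1.64%) was in any of these 3 windows. These matches describe letters only, and no binding was measured.

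Library totals were between 39522890 and 56998875 counts. Vehicle replicate 3 stood apart from the other libraries: its TMM factor was 1.20 against 0.914 to 1.02 in the rest. This library also held the highest level of every tested macrophage, neutrophil, erythroid and Schwann cell marker. CPM are counts scaled to the library total multiplied by its TMM factor. At a given CPM, the TPM values of vehicle replicate 3 were 1.33 times the mean of the 6 libraries (0.867 to 0.984 in the rest). That ratio includes the TMM factor, so the ratio and the factor are not separate signs. The labelled tissue was borne out by 8 muscle fiber markers, none of which was called. Their summed level was 141197 to 218773 CPM with vehicle and 186165 to 223200 with BML-260, lowest in vehicle replicate 3. Fiber content was not even: in counts divided by size factors, Pvalb was 48941 in vehicle replicate 3 against 234647 to 362453 elsewhere. There Mb was 41591 against 83380 to 132428 elsewhere, and Ckm 345178 against 650405 to 923811. Ttn and Myh1 were not lowest in that library. A gene is called here when its fold change is at least 1.3 with an unadjusted p under 0.05 in edgeR's quasi-likelihood test. By that rule 786 of the 16188 tested genes (4.86%) were called lower and 145 (0.896%) higher. At an adjusted p under 0.05 (edgeR quasi-likelihood test, Benjamini-Hochberg) the count over all genes was 0, or 0%, with 966 genes at an unadjusted p under 0.05, 95 genes by DESeq2 and 1 gene by limma voom with sample weights. Each p-value measures only the spread between these 6 mice.

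Gadd45a was lower with BML-260. Its normalized count, the raw count divided by a size factor for the library, was 1915, 4904 and 5082 in vehicle replicates 1, 2 and 3 and 769, 1148 and 1031 in BML-260 replicates 1, 2 and 3. Every vehicle library was above every BML-260 library, but vehicle replicate 1 was much closer to the treated libraries than the other two. The group means were 3967 ± 1779 and 983 ± 194 (SD, n = 3 each). The log2 fold change was -2.02 (SE 0.35), a fold of 0.247 on the fitted scale. This is the value the gene was chosen by, so it carries no test.

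The groups overlapped for each of the other members. Gadd45b had 953, 731 and 1167 normalized counts with vehicle and 1022, 990.4 and 1700.1 with BML-260. BML-260 replicate 3 was the highest library for Gadd45b, and the remaining treated libraries lay inside the vehicle range. Its log2 fold change was 0.38 (SE 0.25), with group means of 950.2 ± 218 and 1237 ± 401.

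Gadd45g had 2444, 2452 and 1928 normalized counts with vehicle and 2118, 2652 and 2844 with BML-260. The groups overlapped, with the lowest library in the vehicle group and the highest in the treated group. The log2 fold change was 0.15 (SE 0.17), and the means were 2275 ± 300.3 and 2538 ± 376. Gadd45gip1 had 1497, 1611 and 1047 normalized counts with vehicle and 1563, 1487 and 1479 with BML-260. Here vehicle replicate 3 alone was low and the other 5 libraries lay close together. Its log2 fold change was 0.12 (SE 0.18), with means of 1385 ± 298 and 1509.9 ± 46.5.

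Of the 4 genes, 1 (Gadd45a) was called lower, where 4.86% of all tested genes were, and 0 were called higher, where 0.896% of all tested genes were. Gadd45a was also the 1 member whose groups did not overlap, against 12.2% of all tested genes. Nothing is read from these counts, since the contrast chose the genes. Among the 16188 tested genes, 126 (0.778%) had a log2 fold change below that of Gadd45a, whereas 90.4%, 71.5% and 67.5% lay below Gadd45b, Gadd45g and Gadd45gip1.

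**Figure D1:**
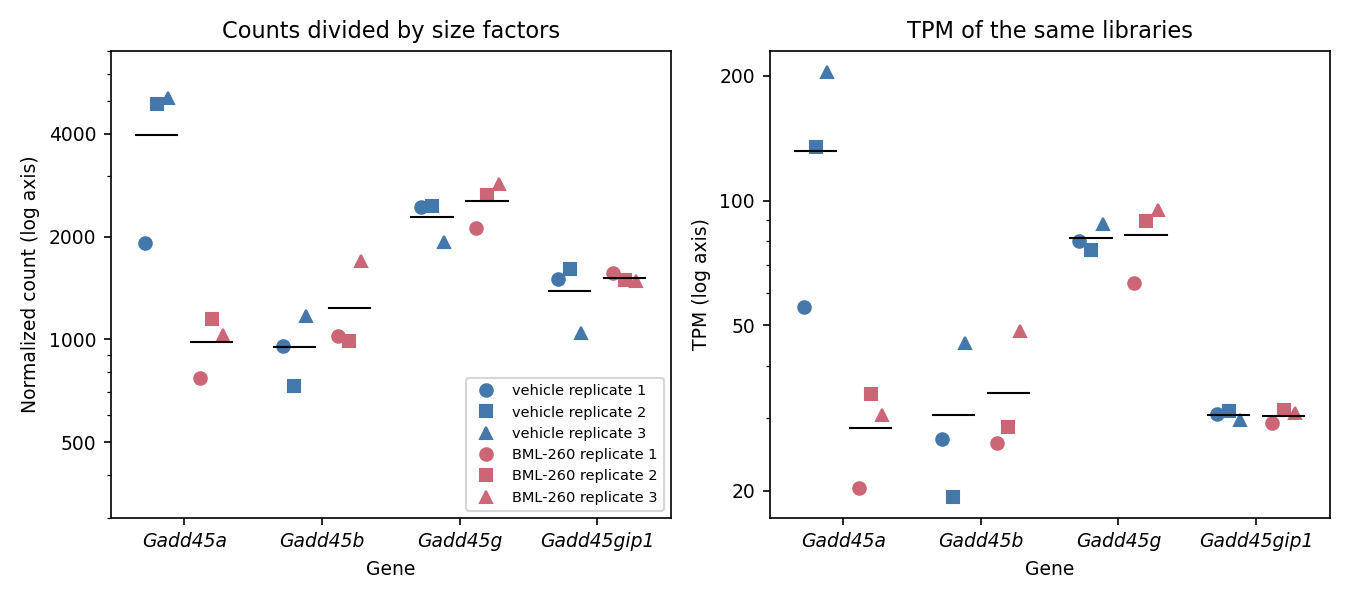
Normalized counts (left, log axis) and TPM (right, log axis) of the 4 genes in each library, with vehicle libraries in blue, BML-260 libraries in red and group means as bars. Gadd45a is between 1915 and 5082 normalized counts with vehicle and between 769 and 1148 with BML-260, and the other 3 genes overlap between the groups on both scales.

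The spread between mice also differed among the members. In the vehicle group the SD of log2 CPM was 0.79 for Gadd45a, 0.33 for Gadd45b, 0.20 for Gadd45g and 0.34 for Gadd45gip1. In the BML-260 group it was 0.30, 0.44, 0.22 and 0.046 in the same order. The highest vehicle library held 2.65 times the normalized count of the lowest for Gadd45a, and the highest BML-260 library 1.49 times the lowest. With 3 libraries a group these spreads are imprecise and were not compared by a test.

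Levels between genes can be compared on the TPM scale, which accounts for transcript length. With vehicle, Gadd45a was at 55.4, 134 and 204 TPM and Gadd45g at 80.1, 76.1 and 87.7 TPM, so Gadd45a had the higher mean (131 ± 74.4 against 81.3 ± 5.89, SD, n = 3) but its range enclosed that of Gadd45g. Gadd45gip1 at 30.6, 31.1 and 29.7 TPM and Gadd45b at 26.7, 19.3 and 45.3 TPM were below both, with means of 30.5 ± 0.743 and 30.4 ± 13.4 that did not differ beyond their spread. The TPM of vehicle replicate 3 carries the higher scale described above.

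With BML-260 the order changed at its top. Gadd45g was first, at 63.1, 89.3 and 94.9 TPM (82.5 ± 17.0). Gadd45b at 26.0, 28.5 and 48.5 TPM, Gadd45gip1 at 29.0, 31.2 and 30.8 TPM and Gadd45a at 20.2, 34.1 and 30.4 TPM followed, with means of 34.3 ± 12.3, 30.3 ± 1.15 and 28.3 ± 7.17. Those last 3 genes overlapped one another, so no order holds among them, and each of their libraries was below each Gadd45g library.

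On this scale the BML-260 mean divided by that of vehicle gave 0.215 (SD 0.134, carried over from both groups' SDs) for Gadd45a, 1.13 (SD 0.640) for Gadd45b, 1.01 (SD 0.222) for Gadd45g and 0.996 (SD 0.0448) for Gadd45gip1. The narrow spread of Gadd45gip1 in TPM, compared with the dip of vehicle replicate 3 in normalized counts, shows how far the 2 scalings part for that library.

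**Figure D2:**
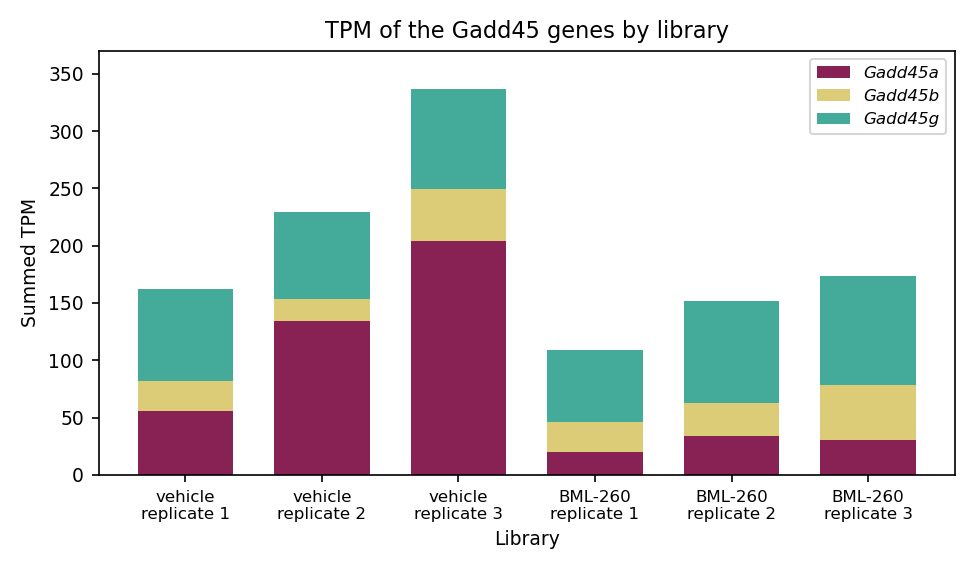
TPM of Gadd45a, Gadd45b and Gadd45g stacked for each of the 6 libraries, from 0. The Gadd45a segment is 55.4 to 204 TPM in the vehicle libraries and 20.2 to 34.1 TPM in the BML-260 libraries, and the Gadd45b and Gadd45g segments together average 112 TPM with vehicle and 117 TPM with BML-260.

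The 3 paralogs can stand in for one another in binding partners, so their sum was followed as well. The summed TPM of Gadd45a, Gadd45b and Gadd45g was 162, 229.7 and 337 with vehicle and 109, 152 and 174 with BML-260, with means of 243 ± 88.2 and 145 ± 32.8. The ranges overlap, because vehicle replicate 1 lies below BML-260 replicate 3. Without Gadd45a the sum was 112 ± 19.3 TPM with vehicle and 117 ± 27.2 TPM with BML-260, a difference of 5.07 TPM.

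Shares within a library do not depend on how the library was scaled. Gadd45a made up 34.2%, 58.5% and 60.6% of the summed TPM of the 3 paralogs in the vehicle libraries and 18.5%, 22.5% and 17.5% in the BML-260 libraries. The groups did not overlap, and the mean share was 51.1 ± 14.7% with vehicle and 19.5 ± 2.62% with BML-260. Gadd45g took 49.4%, 33.1% and 26.0% with vehicle and 57.7%, 58.8% and 54.6% with BML-260. Gadd45b took 16.4%, 8.42% and 13.4% with vehicle and 23.8%, 18.7% and 27.9% with BML-260. The same lower Gadd45a level is in each of these shares, so they are not separate results.

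The ratio of Gadd45a to a single paralog in the same library was read in the same way. Gadd45a over Gadd45g in TPM was 0.692, 1.77 and 2.33 with vehicle and 0.321, 0.382 and 0.320 with BML-260. Gadd45a over Gadd45b was 2.08, 6.94 and 4.51 with vehicle and 0.779, 1.20 and 0.627 with BML-260. For both ratios the lowest vehicle library was again replicate 1, and it was still above the highest BML-260 library.

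Gadd45a shares its span with another gene, and how the authors' counting treated strand is not given in the sources used here. E230016M11Rik overlaps Gadd45a over 809 bases and held only 17 to 77 counts in any library, with a log2 fold change of -0.93 (SE 0.41). These counts were far below those of Gadd45a.

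The genes whose profile over the 6 libraries was most like that of Gadd45a were found by the root mean square difference of log2 CPM, each gene centred on its own mean, among 11780 genes with a mean of at least 1 CPM. They were Rrm2 (0.287), a subunit of ribonucleotide reductase, Tlr7 (0.309), a receptor for single-stranded RNA, Chrna1 (0.364), a subunit of the muscle acetylcholine receptor, Aif1l (0.388), an actin-binding protein, and Serpinb8 (0.396), a protease inhibitor. Rrm2 had 48.5, 119 and 134 normalized counts with vehicle and 20.7, 21.9 and 14.7 with BML-260, with the same low vehicle replicate 1. Tlr7 had 73.3, 134 and 188 with vehicle and 34.5, 61.8 and 38.1 with BML-260. Because Gadd45a was chosen for this pattern, such likeness only describes these 6 libraries.

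The other family members were far down that order. Gadd45g was at rank 7739 (1.16), Gadd45gip1 at rank 8384 (1.19) and Gadd45b at rank 9992 (1.27). Gadd45b was closest to Zc3h3 (0.115), Gnao1 (0.124) and Unk (0.131), Gadd45g to Csnk2a2 (0.0316), Atrn (0.0497) and Sf3a2 (0.0506), and Gadd45gip1 to Nfyc (0.0328), Mccc2 (0.0333) and Asah2 (0.0361). These small values come with small changes: a gene that hardly varies is near many others.

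**Figure D3:**
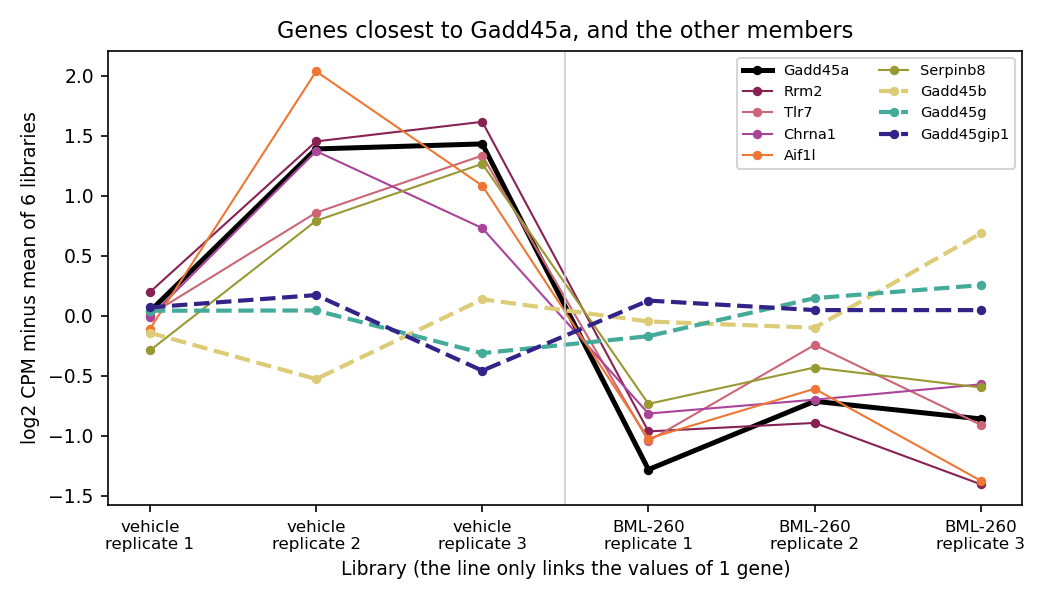
Log2 CPM minus the gene's own mean over the 6 libraries (y axis), by library (x axis), for Gadd45a (thick line), its 5 most like genes (thin lines) and the other members (dashed lines). Gadd45a is near its mean in vehicle replicate 1, high in vehicle replicates 2 and 3 and low in the 3 BML-260 libraries, whereas the other members stay within 1 of 0 in every library.

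Among the partners through which Gadd45 proteins act, the p38 and JNK kinase cascade held 12 genes, of which 11 were tested. None of the 11 was called in either direction (4.86% of all genes were called lower and 0.896% higher), and their median log2 fold change was 0.24 where that of all tested genes was -0.0039. Without vehicle replicate 1, 3 genes of the list were called higher, beside 835 of all 16719 genes tested there. The list median was 0.12 without vehicle replicate 3 and 0.089 with log2(TPM + 1). Mapk12 (p38 gamma), with 0.32 (SE 0.19), Mapk14 (p38 alpha), with 0.25, and Map2k3, which phosphorylates p38 kinases, with 0.20, held the most counts of the list. Map3k4, the direct partner of Gadd45 proteins, named after its value was seen, had a log2 fold change of 0.26 (SE 0.15).

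Of the 6 cell cycle partners, 5 were tested and 1 was called, Cdkn1a, which encodes p21 and was lower. Of all tested genes 4.86% were called lower and 0.896% higher. Cdkn1a had 306, 1261 and 1521 normalized counts with vehicle and 103, 185 and 261 with BML-260. As with Gadd45a, vehicle replicate 1 was the lowest of its group and near the treated libraries, and the groups did not overlap. The log2 fold change was -2.50 (SE 0.57), with a Benjamini-Hochberg adjusted p of 0.598 from edgeR's quasi-likelihood test. The nucleolar chaperone Npm1 had -0.52, the replication clamp Pcna -0.21 and the mitotic kinase Aurka 0.64, none of them called, and the median of the list was -0.52, or -0.18 without vehicle replicate 3. Without vehicle replicate 1, 2 genes of the list were called lower and 1 higher, beside 1388 and 835 of all 16719 tested genes. Without vehicle replicate 2, 2 were called lower, beside 1008 of 16719. By DESeq2, 3 were called lower, beside 840 of 16188.

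None of the 10 DNA demethylation and repair partners was called (4.86% of all tested genes were called lower and 0.896% higher). Their median log2 fold change was -0.039. Without vehicle replicate 1, 1 gene of the list was called lower, beside 1388 of all 16719 tested genes. Those of the list with the most counts were Tet2, with -0.52, Tet3, with 0.24, both 5-methylcytosine oxidases, and the nuclease gene Ercc5, with -0.23.

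Transcription factors known to bind or regulate Gadd45 genes were measured for 15 genes, of which 1 was called lower (4.86% of all tested genes were), and their median was -0.077 on the log2 scale. The called gene was Foxo1, a forkhead factor of the atrophy program, at 1124, 1733 and 3129 normalized counts with vehicle and 867, 1274 and 1023 with BML-260. The groups overlapped, since BML-260 replicate 2 was above vehicle replicate 1. Its log2 fold change was -0.92 (SE 0.34), with an adjusted p of 0.788 (edgeR quasi-likelihood, Benjamini-Hochberg). Without vehicle replicate 3 no factor of the list was called lower, beside 482 of all 16502 tested genes. None was without BML-260 replicate 1 (605 of 16738), with log2(TPM + 1) (393 of 16800) or with log2(TPM + 0.1) (601 of 16800). Without vehicle replicate 1, 2 factors were called lower and 1 higher, beside 1388 and 835 of 16719 genes. Without vehicle replicate 2, 2 were called lower (1008 of 16719). The count was also 2 with no filter (1167 of 25780), at least 10 counts in every library (719 of 14427) or a replicate block (731 of 16188). Atf4 (-0.30), Smad3 (0.37) and Smad4 (0.12), those with the most counts among the others, were not called. Trp53 (p53) had -0.094 and Pou2f1 (Oct-1), whose octamer is in the Gadd45a promoter, 0.084, both named after their values were seen.

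Since Gadd45a is a classic target of p53, 17 other p53 targets were examined. Of these, 4 were called lower and 0 higher (4.86% and 0.896% of all tested genes), and 11 had a negative log2 fold change (50.5% of all tested genes), with a median of -0.40. The called genes were Cdkn1a, the death receptor Fas (-0.83, SE 0.30), the ectodysplasin receptor Eda2r (-0.89, SE 0.36) and the antiproliferative gene Btg2 (-1.44, SE 0.61), with adjusted p-values of 0.598 for the first and 0.788 for the rest (edgeR quasi-likelihood, Benjamini-Hochberg). Ccng1 (0.26), Phlda3 (0.13) and Mdm2 (-0.14), which have many counts and are also induced by p53, were not called. Vehicle replicate 3 was the highest library for 10 of the 17 genes. Without it 1 gene, Cdkn1a (-2.10), was called lower and the median was -0.031. The count was also 1 without BML-260 replicate 2 and on both TPM scales, and 2 without BML-260 replicate 1 or 3. It was 5 without vehicle replicate 1, where 1 gene was also called higher, and 5 without vehicle replicate 2. Over all tested genes, 482 of 16502 were called lower without vehicle replicate 3. Without BML-260 replicates 1, 2 and 3 these were 605 of 16738, 439 of 16767 and 574 of 16765. They were 393 and 601 of 16800 with log2(TPM + 1) and log2(TPM + 0.1). Without vehicle replicates 1 and 2 they were 1388 and 1008 of 16719, and without vehicle replicate 1, 835 were called higher. Whether p53 activity had a part in the Gadd45a value was not tested.

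Gadd45a is also induced when a muscle loses its nerve, so 10 other genes of that response were examined. Of these, 7 were called lower and 0 higher, where 4.86% and 0.896% of all tested genes were, each of the 10 had a negative log2 fold change, and the median was -1.42 beside -0.0039 for all tested genes. Of the 7, 6 are named here: Runx1, a transcription factor (-2.57, SE 0.39), Chrna1 (-1.50, SE 0.31) and Chrnb1 (-0.51, SE 0.18), subunits of the acetylcholine receptor, Myog, the myogenic factor myogenin (-1.91, SE 0.51), Musk, the receptor kinase of the neuromuscular junction (-0.76, SE 0.22), and Ncam1, an adhesion molecule (-1.34, SE 0.42). Their adjusted p-values were between 0.553 and 0.782 (edgeR quasi-likelihood, Benjamini-Hochberg). Such genes were already known from earlier results of these data, so the list is not independent evidence.

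Chrna1 showed the pattern library by library: 645 (vehicle replicate 1), 1688 and 1088 normalized counts against 369.9 (BML-260 replicate 1), 403 and 438. Vehicle replicate 2 was highest here, not replicate 3, and replicate 3 was the highest vehicle library for only 3 of the 10 genes. Without vehicle replicate 3, 9 of the 10 were called lower, among them Runx1 (-2.50), Myog (-1.08) and Hdac4 (-0.58). Without vehicle replicate 2, 6 were called lower and the median was -0.80, and without BML-260 replicate 1 the count was also 6. Over all tested genes those called lower were, in the same order, 482 of 16502, 1008 of 16719 and 605 of 16738. With all libraries Hdac4, a deacetylase that acts upstream of Gadd45a in denervated muscle, had -0.33 (SE 0.26), and the acetylcholine receptor subunit gene Chrnd -1.20. Those 2 and Chrng were not called.

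For Gadd45gip1 the comparison was with the mitochondrial ribosome, of which 81 of 83 listed genes were tested. The list was made by symbol, from all that start with Mrpl or Mrps and a digit. It therefore includes pseudogenes, some of them among the 81 tested. None of the 81 was called (4.86% of all tested genes were called lower and 0.896% higher). Their median log2 fold change was 0.11, and 15 were negative, against 50.5% of all tested genes. These values turned on single libraries and on the scaling: the median was -0.013 without vehicle replicate 3 and -0.019 on both TPM scales. Without vehicle replicate 1 it was 0.24 with 8 genes called higher, beside 835 of all 16719 genes tested there. Gadd45gip1, at 0.12, was near the median of 0.11. Mrpl42 (0.098), Mrpl51 (0.097) and Mrpl30 (0.011) held the most counts.

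**Figure D4:**
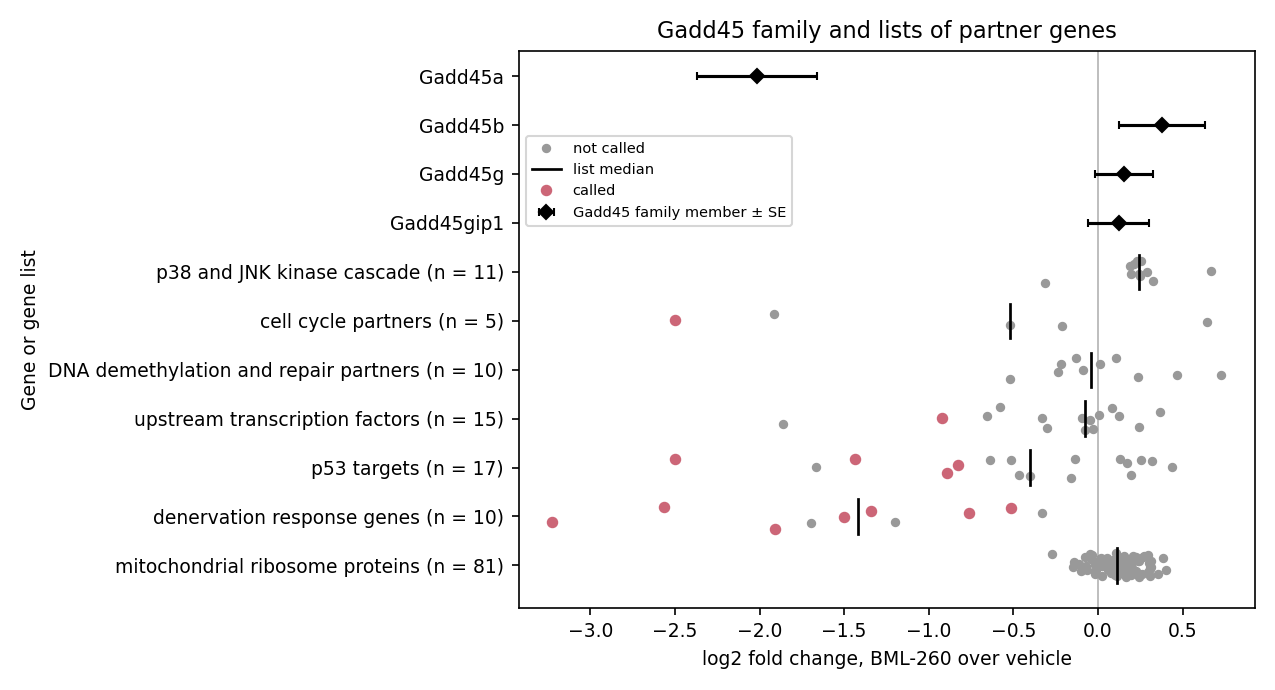
Log2 fold change, BML-260 over vehicle (x axis), of the 4 family members (diamonds with SE) and of each gene in 7 lists (points, called genes in red, list medians as vertical bars). Gadd45a lies at -2.02 while the other members lie between 0.12 and 0.38, and the denervation response genes are all below 0.

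Bulk muscle holds other cells than fibers, and in such samples fewer cells of a type and less RNA per cell cannot be told apart. The summed level of 8 macrophage markers was 84.0, 83.0 and 221 CPM with vehicle and 61.0, 52.5 and 55.9 CPM with BML-260. Of the 8, 7 were called lower, where 4.86% of all tested genes were. Of 6 neutrophil markers the 5 tested were called lower, with summed levels of 53.6, 8.64 and 173 CPM with vehicle and 2.72, 2.11 and 5.01 CPM with BML-260. Retnlg, 1 of the 5, had no count in BML-260 replicates 1 and 2. Vehicle replicate 2 had few neutrophil counts and a Gadd45a level like that of replicate 3 (4904 and 5082 normalized counts). The part of these cells in the Gadd45a difference was not tested.

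Markers of other cells were read in the same way, beside the 4.86% of all tested genes called lower and the 0.896% called higher. Of 5 erythroid markers 3 were called lower, with summed levels of 730.2, 839 and 2344 CPM with vehicle and 678, 591 and 795 CPM with BML-260. The 6 Schwann cell markers had 29.2, 31.1 and 97.9 CPM with vehicle and 42.7, 39.0 and 41.5 CPM with BML-260, and none was called. Of 6 fibroblast markers 1 was called lower (Col1a1), with summed levels of 538 to 889.9 CPM with vehicle and 506 to 863 CPM with BML-260. Of 6 satellite cell markers 1 was called lower (Vcam1), with 104 to 176 CPM and 111 to 149.8 CPM. None of 6 endothelial markers was called, with 162 to 191 CPM and 149 to 186 CPM. The 8 lymphocyte markers were not tested, since none held more than 22 counts in any library.

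Without vehicle replicate 3, the library in which most of these markers were highest, the log2 fold change of Gadd45a was -1.79. Without vehicle replicate 1 it was -2.34. Leaving out vehicle replicate 3 did not level the markers: macrophage markers were at 84.0 and 83.0 CPM in vehicle replicates 1 and 2. With BML-260 they were at 52.5 to 61.0 CPM. Whether these cells had a part in the value of -1.79 was not tested. Gadd45b was more dependent on single libraries: without vehicle replicate 3 its log2 fold change was 0.55 (SE 0.23), and without BML-260 replicate 3 it was 0.08. Without vehicle replicate 3 it met the rule for a gene called higher, as did 175 of all 16502 tested genes. Nothing is read from that call, since the contrast chose the genes.

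**Figure D5:**
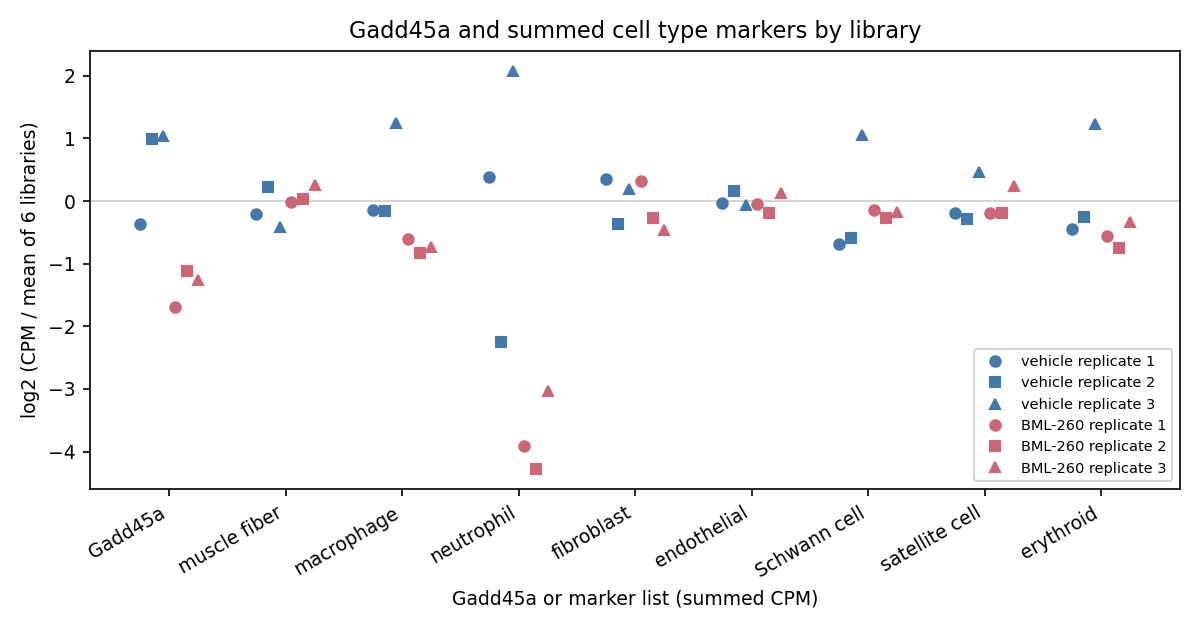
Log2 of the CPM of Gadd45a and of the summed CPM of 8 marker lists, each divided by its mean over the 6 libraries (y axis), with 1 point per library (vehicle blue, BML-260 red). Vehicle replicate 3 is the highest library for macrophage (221 CPM), neutrophil (173 CPM), erythroid (2344 CPM) and Schwann cell (97.9 CPM) markers, and the BML-260 libraries hold 2.11 to 5.01 CPM of neutrophil markers.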

How the data were processed

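Total RNA of the TA muscle was sequenced from 3 vehicle and 3 BML-260 mice with a stranded total RNA kit. The submitters' processing notes name StringTie 2.1.3b, HISAT2 2.1.0, Trimmomatic 0.38, Bowtie2 2.3.4.1 and mm10. The authors deposited raw read counts per gene in 1 table and TPM per library, scaled by them for length and library total. How strand and multi-mapped reads were counted is not given in the sources used here. Counts were kept by filterByExpr (16188 genes), scaled by TMM and fitted with edgeR 4.0.16 (R 4.3.3) by the quasi-likelihood F-test with Benjamini-Hochberg adjustment. DESeq2 1.42.0 gave the size factors of normalized counts, and with limma 3.58.1 and apeglm 1.24.0 the alternatives. The fits were tested on simulated data.

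The members and lists were chosen with earlier results of these data known. Besides the 4 members, the genes named are, per list, the called genes (at most 6 with the smallest p) and up to 3 more with the highest mean count, and for each member the genes of most like profile. Chrnb1, Map3k4, Trp53, Pou2f1, Cdk1, Ccnb1 and E230016M11Rik were named after their values were seen. So were the markers Col1a1, Vcam1, Retnlg, Pvalb, Mb, Ckm, Ttn and Myh1. Some genes of the lists are not reported here. Promoters are RefSeq, GRCm38.p6, which held 3 of the 4 members. TPM were tested as log2(TPM + 1) and log2(TPM + 0.1). SDs are over 3 libraries, and library depth was 39522890 to 56998875 counts. Figures were drawn with matplotlib 3.10.9.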

Additional observations from a re-analysis of the deposited data

How the results depend on the processing

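The log2 fold change of Gadd45a under the 16 alternatives lay between -2.34 (without vehicle replicate 1) and -1.79 (without vehicle replicate 3). The gene was chosen on these same libraries, so the range is a description and not a test. The difference in its share of paralog TPM was between -40.0 and -26.8 percentage points with 1 library left out or with counts per transcript length. Gadd45b was between 0.0015 (apeglm) and 0.55 (without vehicle replicate 3), and Gadd45g between 0.0012 and 0.27. Gadd45gip1 was between -0.044 (without vehicle replicate 3) and 0.24, its sign depending on the setting. The TPM scale moved the median of all genes to -0.089 with log2(TPM + 1) and -0.136 with log2(TPM + 0.1).

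Of the lists, the cell cycle median was -1.22 with no filter, where Ccnb1 joins 5 other genes. The medians of DNA demethylation partners and of upstream factors were -0.258 and -0.222 with log2(TPM + 0.1), and that of p53 targets was -0.136 with voom weights, for which the cause was not tested. With 1 library left out, medians ran from -0.56 to -0.031 for p53 targets, -1.74 to -0.80 for denervation genes, -0.67 to -0.18 for cell cycle partners, -0.090 to 0.021 for demethylation partners, -0.13 to 0.032 for upstream factors, 0.12 to 0.31 for the kinase cascade and -0.013 to 0.24 for the mitochondrial ribosome. Genes called lower numbered 393 with log2(TPM + 1), and between 439 (without BML-260 replicate 2) and 1388 (without vehicle replicate 1) with 1 library left out. Genes called higher numbered 249 with no filter, 255 with voom weights, 53 with log2(TPM + 1) and 91 with log2(TPM + 0.1), and between 64 (without BML-260 replicate 2) and 835 (without vehicle replicate 1). At an adjusted p under 0.05, DESeq2 gave 95 genes where edgeR gave 0.

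Same-numbered libraries deviated from their group means with correlations of 0.162, 0.054 and 0.110, so the numbers were not taken as pairs, though every library correlated best with its own number. With a replicate block Gadd45a was at -1.91 and 326 genes were called higher. With 3 libraries a group, the log2 fold changes of Gadd45b (0.38, SE 0.25), Gadd45g (0.15, SE 0.17) and Gadd45gip1 (0.12, SE 0.18) are imprecise. They were not tested against 0, since the contrast chose the genes.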
